A study of Mus musculus with 12 samples.

Results

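The genes described here encode the proteins of the mitochondrial ribosome and were picked by a rule on their names. It took every listed gene whose symbol was Mrpl or Mrps followed by a number and at most 1 letter. This choice was made with earlier results of these data known. The rule found 77 of 45706 listed genes, of which 48 carried a large-subunit name (Mrpl) and 29 a small-subunit name (Mrps). All 77 passed the filter on low values (a mean of at least 0.1 TPM, a transcript abundance scaled to the same total in each library, over the 12 libraries), which left 18909 genes for testing. The rule left out mitochondrial ribosomal proteins with other names, which are described further on, and pseudogenes.

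The data were 12 RNA-seq libraries of BN1-Tie2-EGFP cells, an immortalized murine hepatoblastoma (HB) line, in 4 groups of 3. The line came from a tumor driven by mutant β-catenin (B) and NRF2 (N), is labelled as knocked out for Cdkn2a, and was made of pooled clones that stably carried EGFP under the endothelial cell (EC) promoter Tie2/Tek. UN cells were unsorted and grown in normoxia (21% O2), and UH cells were the same unsorted cells after 2 days in 1% O2. SN cells were sorted for the highest EGFP after 2 days of hypoxia and then expanded for about 10 days in normoxia, and SH cells were those expanded cells after a second exposure of 2 days to 1% O2. The comparisons ask how these mRNAs responded to hypoxia in unsorted cells (UH vs UN) and in sorted cells (SH vs SN), and how sorted cells differed from unsorted ones at either oxygen level. All 4 groups shared the oncogenes, the Cdkn2a knockout label and the reporter. The paper reports multiple Cdkn2a mutations in each line, and whether sorting changed their mix was not tested.

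Mitochondria make the few proteins encoded by their own genome on a dedicated ribosome, whose rRNAs are mitochondrial but whose proteins are all encoded in the nucleus, made in the cytosol and imported. The proteins it makes are core subunits of the respiratory chain and of ATP synthase, so this ribosome is needed for oxidative phosphorylation, on which the mitochondria-rich cells of the liver depend. Some of its proteins descend from bacterial ribosomal proteins and others are found only in mitochondria. In low oxygen, many cells reduce respiration and turn to glycolysis.

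All 77 genes were found by identifier in the GENCODE annotation of GRCm38, the assembly also called mm10. They were protein coding and spread over 17 autosomes, with the largest number, 10, on chromosome 11 and none on X. An exon of 8 of them was shared with another gene on the same strand, so reads there could have been assigned to either gene. An exon of 27 overlapped a gene on the opposite strand. The library preparation was stranded, but the strand setting used to assign reads is not given in the sources used here.

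A set of 8 hypoxia target genes summed to 290.0 to 432 TPM in the 6 normoxic libraries and to 2963 to 4321 TPM in the 6 hypoxic ones, as labelled. Cdkn2a mRNA was 265 ± 65.4 TPM in UN and 13.2 ± 3.07 TPM in SN (mean ± SD, n = 3), a level that does not test for mutations that leave the transcript. Hepatic markers summed to 96.4 to 212 TPM over all libraries (Ttr averaged under 0.1 TPM). The fibroblast markers (6 genes, mainly collagens) summed to 1013 to 4314 TPM in UN, 4546 to 6806 in UH, 165 to 185 in SN and 41.0 to 65.2 in SH. The endothelial markers summed to 0.184 to 0.392 TPM in unsorted and 2.27 to 3.98 TPM in sorted libraries (Cdh5, Tie1 and Emcn averaged under 0.1 TPM). Of the 3 tested, only Tek, whose promoter drove the sorted reporter, was called higher in SN than in UN. The immune markers summed to 3.47 to 15.3 TPM outside SH and 52.2 to 57.0 TPM in SH (Ptprc, Adgre1 and Cd3e averaged under 0.1 TPM). Of the 3 tested, only Cd68 was called higher in SH than in SN. Mitochondrially encoded transcripts took 5.18 to 8.38% of all TPM in normoxia and 1.67 to 4.68% in hypoxia. Each value is given on 2 scales where they differ: TPM as deposited, and TPM divided by median-of-ratios size factors from 15104 genes, which ran from 0.781 in UH 1 to 1.16 in UN 3. UH 1 stood apart, with cytosolic ribosomal protein mRNAs at 203381 TPM against 170329 and 159481 in the other UH libraries. Whether a lower level meant fewer cells with the mRNA or less mRNA per cell cannot be told apart in bulk RNA.

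Added over all 77 genes, mitochondrial ribosomal protein mRNA was lower in every hypoxic library than in every normoxic one as deposited. The sums were 6330.4, 6491 and 6159 TPM in UN and 4734, 4231 and 4051 in UH. In sorted cells they were 6092, 6065 and 5726 TPM in SN and 4356, 4559.5 and 4763 in SH. The means were 6327 ± 166, 4339 ± 354, 5961 ± 204 and 4559 ± 204 TPM in UN, UH, SN and SH (SD, n = 3). After scaling the gap between SN (5908, 5946 and 5531) and SH (4178, 4286 and 4973) stood, but UH 1 reached 6065 and lay above all 3 UN libraries (5988, 5683 and 5304), while UH 2 and UH 3 stayed below them at 4764 and 4209.

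**Figure D1:**
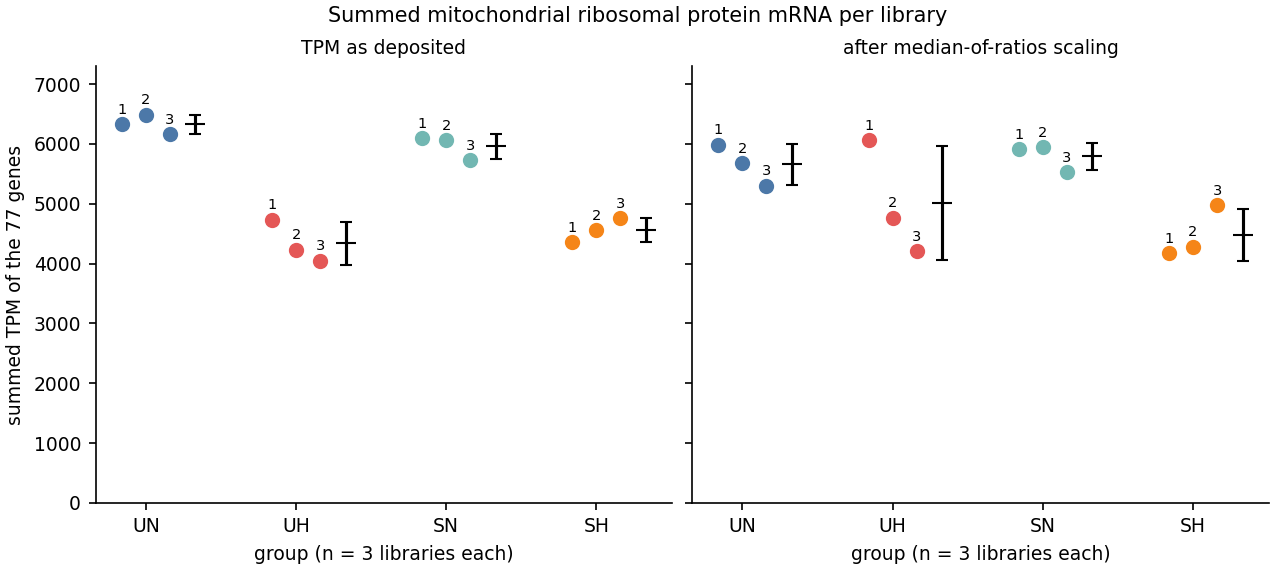
Summed TPM of the 77 genes in each library, as deposited (left) and after median-of-ratios scaling (right), with library numbers over the points and the mean and SD (n = 3) of each group as a bar beside them. As deposited the hypoxic groups lie between 4051 and 4763 and the normoxic groups between 5726 and 6491, and after scaling UH 1 reaches 6065, above every normoxic library.

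The level of single members ranged widely. The highest mean over the 12 libraries belonged to Mrps21, a small-subunit protein of bacterial descent, at 236 TPM, followed by Mrps23 (a small-subunit protein found only in mitochondria), Mrpl54, Mrpl17 and Mrpl33. The lowest belonged to Mrpl57 at 8.23 TPM, below Mrpl35, Mrpl1, Mrpl55 and Mrps31. Mrps21 was 239, 366 and 289.8 TPM in UN, 244, 215 and 198 in UH, 249.8, 268 and 232 in SN and 163, 179.6 and 193 in SH. The UN and UH ranges overlapped by a single UH library, and the SH libraries all lay below the SN libraries. Mrpl57 was 12.6, 10.7 and 11.9 TPM in UN and 7.74, 5.12 and 7.75 in UH, without overlap, while its SN values of 8.19, 7.85 and 6.99 overlapped its SH values of 6.51, 5.63 and 7.74. By group mean, UN was the highest of the 4 groups for 43 members and UH the lowest for 39 as deposited. After scaling SN was highest for 35 and SH lowest for 45, so the order of the groups depended on the scale.

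In unsorted cells, hypoxia was accompanied by lower mRNA of most mitochondrial ribosomal proteins. Of the 77 genes, 62 were lower and 2 higher in UH than in UN (limma adjusted p under 0.05), against 33.5% of all genes tested lower and 13.0% higher. With the added demand of a fold difference above 2, 15 were lower and 0 higher (11.8% and 5.46% of all genes, 17.2% in either direction). The libraries of the groups did not overlap for 63 lower and 2 higher members, against 36.2% and 14.9% of all genes. The median difference was -0.65 on the log2(TPM + 1) scale for the members and -0.19 for all genes. Median-of-ratios scaling moved the median of all genes to 0 and that of the members to -0.30, and it left 31 lower and 6 higher (21.1% and 21.7% of all genes). Among the 9229 genes at least as abundant as the lowest member, 45.9% were lower as deposited and 27.6% after scaling.

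The 5 members that fell most in UH were Mrpl41, Mrpl16, Mrpl22, Mrpl4 and Mrps22. Mrpl41, a mitochondria-specific protein of the large subunit, was 119, 130.2 and 102 TPM in UN and 43.9, 37.9 and 37.0 in UH, a log2 difference of -1.54 ± 0.14 (SE; adjusted p = 3.7e-06). Mrpl16, the counterpart of a bacterial protein beside the site where peptide bonds form, was 59.1, 59.8 and 60.2 TPM in UN and 19.8, 19.8 and 20.6 in UH (log2 difference -1.53 ± 0.12, adjusted p = 1.34e-06). The 3 UH values of Mrpl16 were nearly equal and far from the UN values. Mrpl22 and Mrpl4, both of bacterial descent and lining the tunnel through which the new protein leaves, fell as well. Mrpl22 was 115, 108 and 106 TPM in UN and 45.5, 41.0 and 43.2 in UH (log2 difference -1.33 ± 0.10, adjusted p = 8.56e-07). Mrpl4 was 77.7, 115 and 95.3 TPM in UN and 43.5, 37.1 and 35.8 in UH (log2 difference -1.27 ± 0.15, adjusted p = 3.53e-05). Mrps22, a mitochondria-specific protein of the small subunit, was 39.0, 41.1 and 37.1 TPM in UN and 17.3, 14.7 and 15.1 in UH (log2 difference -1.27 ± 0.11, adjusted p = 3.41e-06). None of these 5 overlapped between UN and UH, and after scaling all 5 were still lower, by log2 differences of -1.19, -1.18, -0.98, -0.92 and -0.92.

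A single named member rose in UH without overlap. Mrpl45, which anchors the ribosome to the inner membrane at the tunnel exit, was 33.8, 39.7 and 41.1 TPM in UN and 53.4, 51.8 and 62.3 in UH (log2 difference 0.54 ± 0.14, adjusted p = 0.00665, and 0.89 after scaling). The other member called higher was Mrpl54, a mitochondria-specific protein, at 187, 85.8 and 85.2 TPM in UN and 229.5, 196 and 171 in UH (log2 difference 0.82 ± 0.25, adjusted p = 0.0171). Its groups overlapped because UN 1 stood far above the other UN libraries. Without UN 2, UN 3 or UH 1, 1 member was called higher instead of 2. UN 1 also had the highest fibroblast marker sum of UN, 4314 TPM against 1151 and 1013. Of the 6 fibroblast markers 3 rose and 3 fell in UH, and their part in the Mrpl54 difference was not tested. All 64 calls stood on TPM rescaled without the mitochondrially encoded transcripts, whose share was lower in hypoxia.

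In sorted cells the same direction was seen, and here it hardly depended on the scale. The size factors averaged 1.03 in SN and 1.02 in SH, against 1.12 in UN and 0.877 in UH. Scaling could therefore shift SH vs SN only a little. Of the 77 genes, 51 were lower and 3 higher in SH than in SN, against 19.5% and 21.5% of all genes. With a fold difference above 2, 5 were lower and 1 higher, while of all 18909 genes 945 were lower and 1412 higher by that much (12.5% in either direction). With both directions counted together, the members did not pass this fold more often than all genes. The libraries did not overlap for 58 lower and 4 higher members (27.1% and 29.7% of all genes). The median difference was -0.46 for the members and 0.03 for all genes. After scaling 45 members were lower and 2 higher (20.2% and 22.9% of all genes), with a median of -0.45. Among the 9229 genes at least as abundant as the lowest member, 32.2% were lower as deposited and 33.0% after scaling.

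Mrpl12 fell most in SH. It forms the flexible stalk that recruits translation factors and also binds the mitochondrial RNA polymerase. It was 140.2, 131 and 129.9 TPM in SN and 45.3, 48.1 and 63.6 in SH (log2 difference -1.35 ± 0.14, adjusted p = 2.34e-05). In unsorted cells Mrpl12 was 126, 128 and 125 TPM in UN and 64.4, 54.5 and 44.7 in UH (log2 difference -1.21 ± 0.14, adjusted p = 3.29e-05), so it was at most 64.4 TPM in a hypoxic and at least 125 TPM in a normoxic library. Mrpl16 was 66.9, 57.5 and 56.4 TPM in SN and 22.2, 24.5 and 30.6 in SH (log2 difference -1.20 ± 0.12, adjusted p = 1.31e-05), again without overlap. Mrpl22 was 98.7, 106 and 88.4 TPM in SN and 45.6, 48.1 and 53.1 in SH (log2 difference -0.98 ± 0.10), also without overlap. Mrpl3, a core protein of bacterial descent, was 57.3, 54.5 and 53.5 TPM in SN and 23.1, 25.8 and 30.5 in SH (log2 difference -1.04 ± 0.12, adjusted p = 5.09e-05). Mrpl11, at the base of the stalk that Mrpl12 forms, was 33.0, 34.5 and 28.2 TPM in SN and 14.4, 15.3 and 16.2 in SH (log2 difference -1.01 ± 0.13, adjusted p = 9.73e-05). Mrpl10, which anchors the stalk, was not called in SH vs SN (-0.08 ± 0.10, adjusted p = 0.6). Mrpl12, Mrpl16, Mrpl3 and Mrpl11 all kept their calls after scaling, where Mrpl12 differed by -1.34, Mrpl16 by -1.19 and Mrpl3 by -1.03.

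Mrps6, a small-subunit protein of bacterial descent, was lower in hypoxia and higher after sorting. It was 101, 89.7 and 96.3 TPM in UN, 44.5, 42.5 and 41.2 in UH, 248, 226 and 205 in SN and 86.5, 101 and 115 in SH. Hypoxia gave log2 differences of -1.14 ± 0.11 (adjusted p = 8.41e-06) in unsorted and -1.16 ± 0.11 (adjusted p = 1.23e-05) in sorted cells, and the difference between these responses was -0.02 ± 0.16 (adjusted p = 0.938). The SH libraries overlapped the UN libraries, and Mrps6 was higher after sorting at either oxygen level (1.23 ± 0.11 in SN vs UN, adjusted p = 8.83e-06, and 1.21 ± 0.11 in SH vs UH, adjusted p = 7.45e-06). An exon of Mrps6 (chr16:92058270-92112227, plus strand) is shared with Slc5a3, a myo-inositol transporter gene, which was 5.04, 6.41 and 7.66 TPM in UN, 1.13, 2.22 and 3.16 in UH, 11.6, 9.89 and 8.74 in SN and 4.81, 5.90 and 3.91 in SH, likewise lower in UH and higher in SN than in UN. How reads were divided between the genes was not tested.

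There were 3 members higher in SH than in SN. Mrpl24, of bacterial descent, was 73.0, 71.7 and 71.9 TPM in SN and 151, 156 and 135 in SH (log2 difference 1.02 ± 0.10, adjusted p = 1.5e-05). As deposited it was the only member to rise more than 2-fold on the log2(TPM + 1) scale. Mrpl45 fell just short on that scale, although its mean was 41.4 TPM in SN and 84.7 TPM in SH. The UN and UH values of Mrpl24, 79.4, 89.8 and 99.3 and 108, 93.0 and 94.1 TPM, overlapped (log2 difference 0.14 ± 0.10, adjusted p = 0.301). After scaling Mrpl24 was called higher in UH (0.49, adjusted p = 0.00486). An exon of Mrpl24 overlaps Rrnad1 on the opposite strand, and Rrnad1 was 10.9, 12.1 and 11.7 TPM in SN and 34.5, 31.8 and 22.8 in SH. Mrpl45 was 42.3, 43.0 and 38.9 TPM in SN and 87.7, 98.1 and 68.2 in SH (log2 difference 1.00 ± 0.14, adjusted p = 0.000137), so its level rose in both kinds of cell. Mrps23 was 153, 144 and 157 TPM in SN and 181, 182 and 193 in SH (log2 difference 0.30 ± 0.09, adjusted p = 0.0229), a smaller rise that was not called after scaling (adjusted p = 0.0693) or without SN 1, SN 2 or SH 3 (0.30, 0.26 and 0.27). In unsorted cells Mrps23 went the other way, from 188, 215 and 171 TPM to 153, 142 and 142 (log2 difference -0.39 ± 0.09, adjusted p = 0.00468).

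The calls of UH vs UN and SH vs SN, which share no libraries, are set side by side here. They are not independent, because the same fit gave both the same estimate of the spread of each gene. Of the 77 members, 49 were lower in both, against 15.3% of all genes, and Mrpl45 was higher in both. A further 12 were lower in UH vs UN alone (16.8% of all genes), which was near the share of all genes. In SH vs SN alone, 2 (Mrpl40 and Mrpl44) were lower (3.95% of all genes), and 10 were called in neither (37.4% of all genes). After scaling 25 were lower in both (11.8% of all genes), and both Mrpl24 and Mrpl45 were higher in both. A further 20 were called lower in SH vs SN and not in UH vs UN (7.69% of all genes). The reverse held for 6, which was near the share of all genes (8.56%). Mrpl12, Mrpl16, Mrpl22, Mrpl41, Mrps6 and Mrps22 were among the 25.

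**Figure D2:**
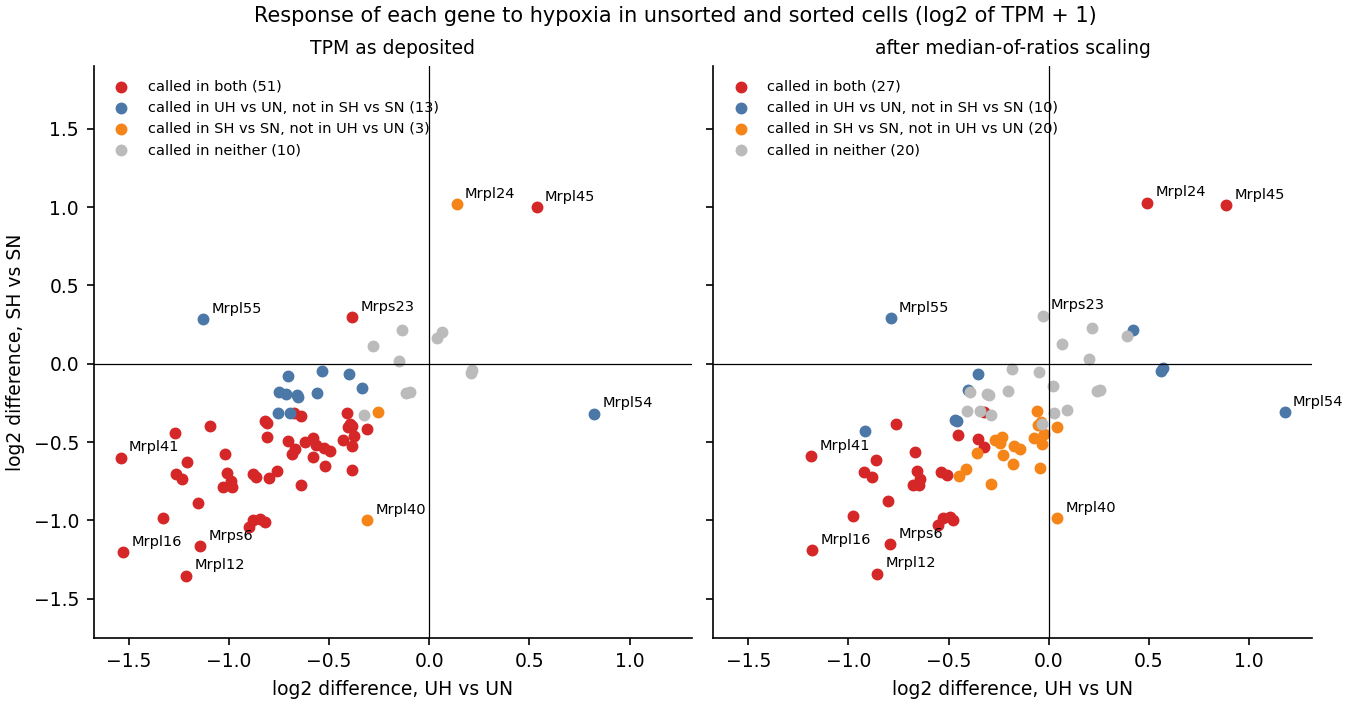
Log2 difference of each of the 77 genes in UH vs UN (x axis) and in SH vs SN (y axis) on the log2(TPM + 1) scale, as deposited (left) and after median-of-ratios scaling (right), colored by where the gene was called, with the number of genes in parentheses. Most genes lie in the lower left, 49 of them called lower in both as deposited and 25 after scaling, and Mrpl45 and Mrpl24 lie in the upper right.

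**Figure D3:**
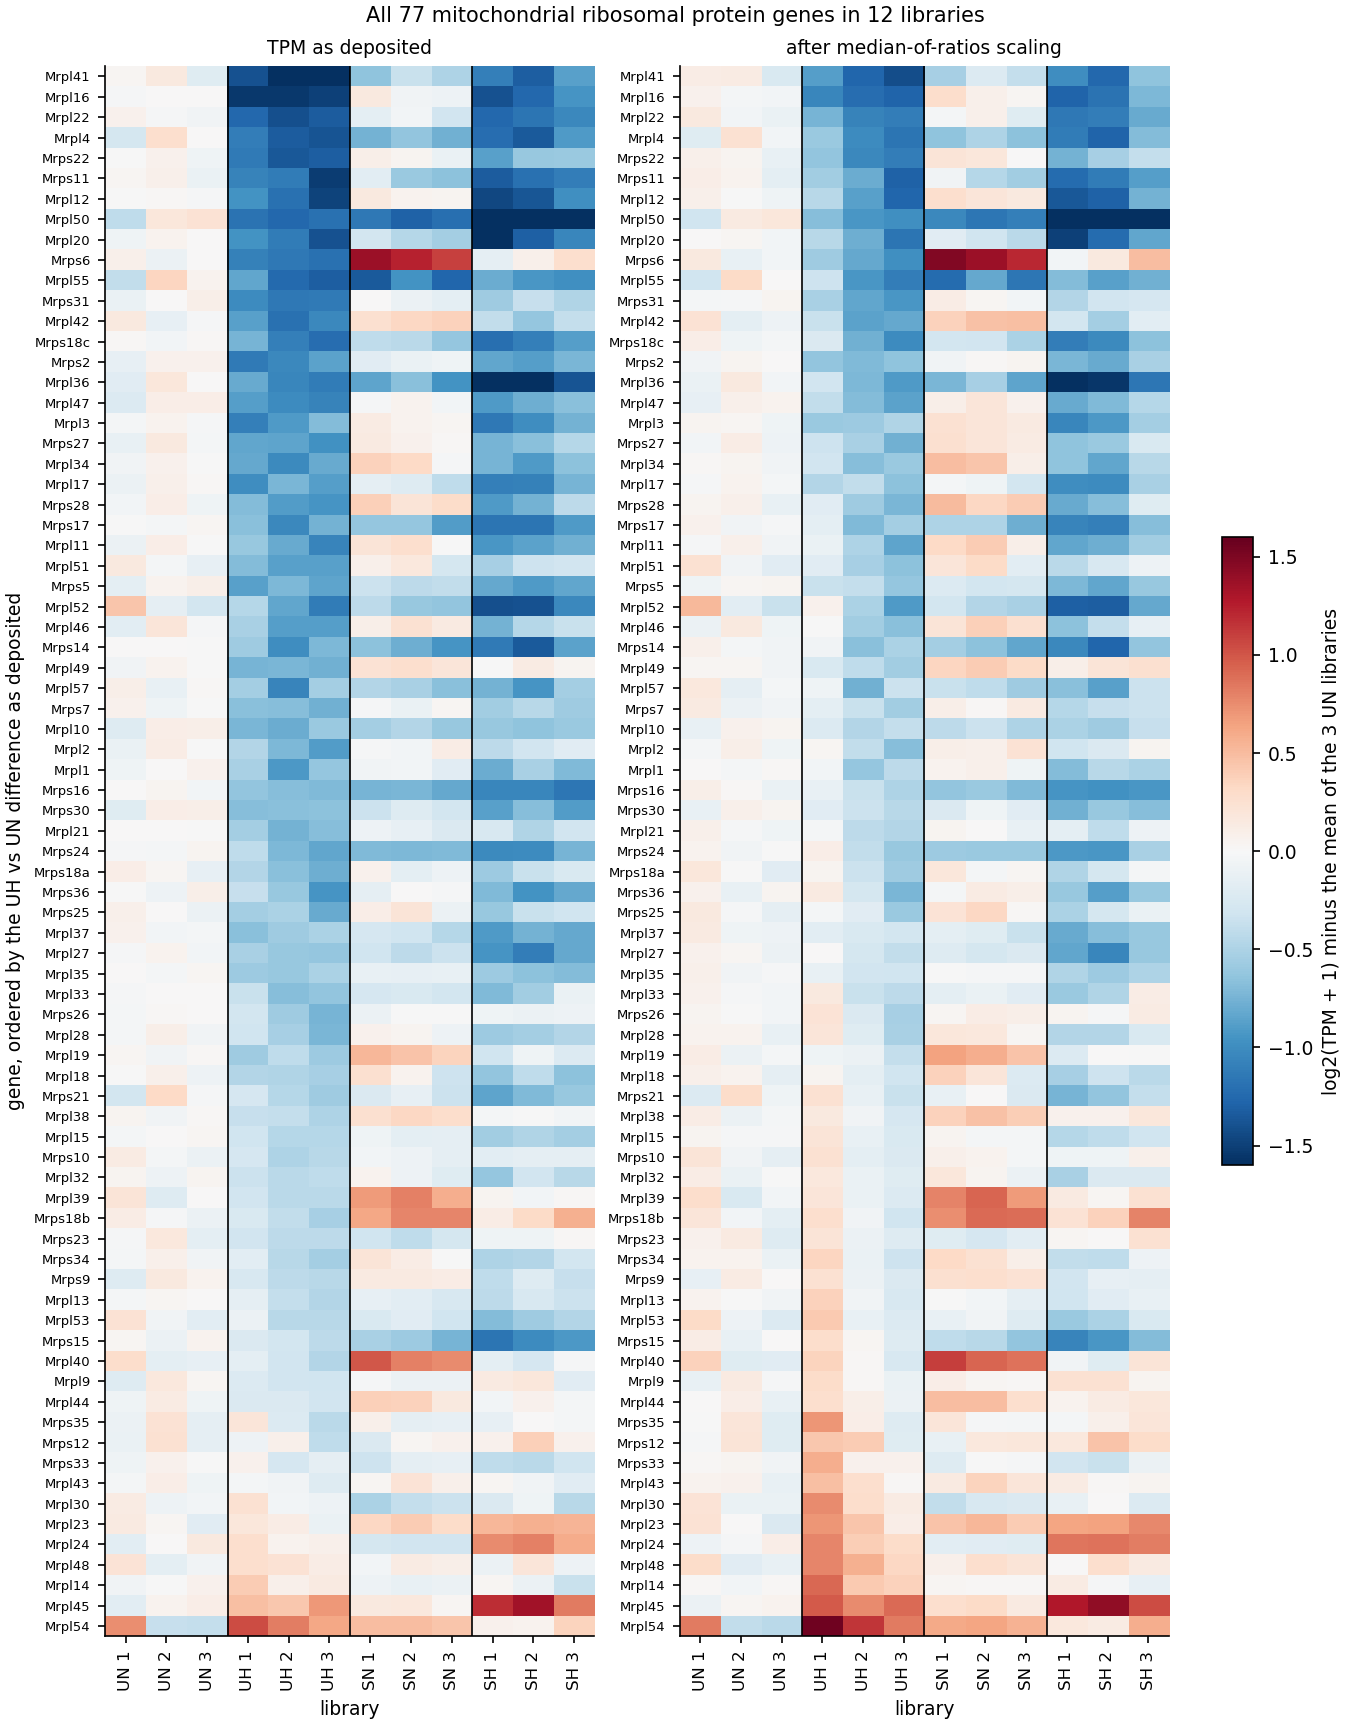
Each gene (row) in each library (column) as log2(TPM + 1) minus the mean of the UN libraries on that scale, as deposited (left) and after median-of-ratios scaling (right), in the order of the UH vs UN difference as deposited. Blue is below UN, and the UH mean was above that of UN for 7 of 77 genes as deposited and for 17 after scaling, where UH 1 is paler than UH 2 and UH 3.

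The promoters of the members were described from the RefSeq table of GRCm38.p6, which held 74 windows (250 bases before to 50 after the start of transcription) for 68 of the 77 genes. Motifs were searched on both strands. The core GCGCANGCG of the factor NRF1 was in 21.6% of member windows and 6.25% of all 32851 windows. CCGGAAG, the core bound by ETS factors such as GABP, was in 33.8% and 8.86%, and AAGATGGCG, the motif of YY1, in 10.8% and 1.40%. The E-box CACGTG was in 9.46% and 7.15%, and ACGTG, the core bound by hypoxia-inducible factors (every CACGTG holds it), in 25.7% and 19.6%. NRF1 here is nuclear respiratory factor, not the NRF2 oncogene of the line. Of the 43 members with a window that were lower in both comparisons, 8 held the NRF1 core, 15 the ETS core, 7 the YY1 motif, 4 the E-box and 10 the hypoxia core. Over all 68 members with a window these numbers were 16, 25, 8, 5 and 16. The windows of all genes were not matched to those of the members in base composition. The part of the motifs in the response to hypoxia was not tested. The promoters of 5 members are printed, chosen after their values were seen, as examples and by no fixed rule: Mrpl12, Mrpl16 and Mrpl22, which fell without overlap in both kinds of cell, and Mrpl24 and Mrpl45, which rose in SH. Mrps6 also fell without overlap in both, and its window held none of the motifs. Each printed stretch is 150 bases on the plus strand, ending before the first annotated exon, with matches to the motifs in capitals.
Mrpl12: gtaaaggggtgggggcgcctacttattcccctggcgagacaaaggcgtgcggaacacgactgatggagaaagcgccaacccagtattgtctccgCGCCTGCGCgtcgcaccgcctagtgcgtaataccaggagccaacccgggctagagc
Mrpl16: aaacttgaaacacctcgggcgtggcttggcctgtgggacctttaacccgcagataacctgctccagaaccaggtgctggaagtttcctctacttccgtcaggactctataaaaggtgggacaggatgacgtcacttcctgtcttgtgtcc
Mrpl22: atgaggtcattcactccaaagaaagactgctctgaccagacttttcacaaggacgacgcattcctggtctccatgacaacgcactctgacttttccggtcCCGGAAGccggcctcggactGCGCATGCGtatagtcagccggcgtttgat
Mrpl24: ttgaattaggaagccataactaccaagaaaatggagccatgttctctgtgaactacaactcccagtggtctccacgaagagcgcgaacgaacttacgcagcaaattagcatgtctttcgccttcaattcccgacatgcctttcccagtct
Mrpl45: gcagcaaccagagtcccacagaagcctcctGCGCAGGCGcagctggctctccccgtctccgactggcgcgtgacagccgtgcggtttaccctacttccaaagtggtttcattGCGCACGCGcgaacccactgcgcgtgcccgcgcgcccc

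The stretches lie at chr11:120484463-120484612 (Mrpl12), chr19:11770241-11770390 (Mrpl16), chr11:58171511-58171660 (Mrpl22), chr3:87919356-87919505 (Mrpl24) and chr11:97315566-97315715 (Mrpl45). Mrpl12 held 1 NRF1 core, and Mrpl22 held 1 NRF1 core and 1 ETS core. Mrpl45, which rose, held 2 NRF1 cores. Mrpl16, which fell, and Mrpl24, which rose, held none of the motifs in these stretches.

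Divided by descent, with Mrps36 in neither class, the median of both classes was below 0 in hypoxia, and their counts stand against 33.5% (21.1% scaled) of all genes lower in unsorted and 19.5% in sorted cells. Of the 45 members with a bacterial counterpart, 39 were lower and 0 higher in UH vs UN as deposited (median -0.69), and 21 lower and 3 higher after scaling (median -0.34). Of the 31 found only in mitochondria, 22 were lower and 2 higher (median -0.58), and 10 lower and 3 higher after scaling (median -0.23), where 27.6% of the genes at least as abundant as the lowest member were lower. In SH vs SN the counts were 31 lower and 1 higher for the first class (median -0.49) and 19 lower and 2 higher for the second (median -0.38). By name, 36 of 48 Mrpl and 26 of 29 Mrps genes were lower in UH vs UN, and 30 and 21 in SH vs SN. The difference between the classes was not tested.

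Mrps18a, Mrps18b and Mrps18c are paralogues of 1 bacterial protein that occupy different places, Mrps18a in the large subunit and the others in the small. Mrps18c was 99.1, 94.8 and 98.5 TPM in UN, 57.9, 45.2 and 41.2 in UH, 73.0, 71.8 and 63.0 in SN and 41.5, 45.0 and 52.4 in SH. It fell in both hypoxia comparisons (-1.02 ± 0.13, adjusted p = 5.67e-05, and -0.57 ± 0.13, adjusted p = 0.00398) and held both calls after scaling. Mrps18a was 78.2, 74.2 and 66.5 TPM in UN, 52.5, 45.3 and 42.0 in UH, 76.3, 65.1 and 69.1 in SN and 48.5, 56.8 and 61.1 in SH. It was called lower in both as deposited (-0.64 and -0.34) and in neither after scaling (adjusted p = 0.184 and 0.134), and the sorted call was also lost without SN 1, SN 3, SH 1 or SH 2 (-0.28, -0.35, -0.24 and -0.36). Mrps18b was 112, 102 and 96.8 TPM in UN, 87.4, 78.9 and 71.6 in UH, 160.1, 178 and 179 in SN and 113, 128 and 154 in SH. Its SN libraries all lay above the other groups, and it was higher in SN than in UN (0.73 ± 0.12, adjusted p = 0.000742) and in SH than in UH (0.72 ± 0.12, adjusted p = 0.000625), both also after scaling (0.85 and 0.50). Its falls of -0.39 in UH and -0.40 in SH were not called after scaling, nor, for UH, without UN 1, UH 2 or UH 3 (-0.33, -0.39 and -0.32) and, for SH, without SN 2, SN 3, SH 1 or SH 2 (-0.37, -0.37, -0.29 and -0.38).

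Mrps30 and Mrps36 carry small-subunit names but sit elsewhere, Mrps30 in the large subunit and Mrps36 in the 2-oxoglutarate dehydrogenase complex of the citric acid cycle. Mrps30 was 40.5, 50.1 and 49.6 TPM in UN, 28.6, 28.8 and 29.3 in UH, 36.5, 40.3 and 37.9 in SN and 24.9, 28.6 and 24.5 in SH, and was lower in both hypoxia comparisons on both scales (-0.67 and -0.54 as deposited, -0.32 and -0.53 scaled). Mrps36 was 56.2, 53.1 and 60.2 TPM in UN, 43.6, 36.8 and 28.8 in UH, 50.8, 56.6 and 55.8 in SN and 34.1, 28.6 and 31.4 in SH. It fell in SH on both scales (-0.78 and -0.76) and in UH as deposited (-0.64) but not after scaling (adjusted p = 0.225). A further 6 mitochondrial ribosomal proteins have other names. Chchd1 (-0.85 and -0.66), Ptcd3 (-0.76 and -0.33), Aurkaip1 (-0.75 and -0.39) and Ict1 (-0.46 and -0.60) were among the 5 lower in UH vs UN and the 5 lower in SH vs SN. Dap3, a small-subunit protein that binds GTP, was 91.9 ± 12.4 TPM in UN and 92.6 ± 8.91 in UH (SD, n = 3; adjusted p = 0.929), but after scaling it was called higher in UH (0.37, adjusted p = 0.0349). As deposited it was higher in SH, at 106 ± 4.96 against 84.7 ± 1.72 TPM in SN (log2 difference 0.32, adjusted p = 0.0317, and 0.0524 after scaling).

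In normoxia, single members differed between sorted and unsorted cells, while the median of the members lay near 0. In SN vs UN, 10 members were higher and 21 lower as deposited, against 13.0% and 20.9% of all genes, and 10 higher and 11 lower after scaling (17.7% and 18.1%). Only the number lower as deposited was above the share of all genes. After scaling the members were called less often than all genes in either direction. The median was -0.07 as deposited and 0.05 after scaling, so the direction of the group flipped with the scale. Besides Mrps6 and Mrps18b, the members that rose most were Mrpl40, Mrpl39 and Mrpl19. Mrpl40, a mitochondria-specific large-subunit protein, was 68.1, 49.7 and 51.0 TPM in UN and 111, 97.8 and 94.8 in SN (log2 difference 0.85 ± 0.14, adjusted p = 0.000559). Mrpl39, also mitochondria-specific, was 28.8 ± 4.32 and 46.9 ± 3.81 TPM (SD, n = 3) in UN and SN (0.69 ± 0.11), and Mrpl19, of bacterial descent, was 27.6 ± 1.05 and 38.0 ± 2.41 TPM (0.45 ± 0.10). All 5 were called on both scales.

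Mrpl50, a mitochondria-specific large-subunit protein, was the member that fell most in SN, from 41.0, 61.9 and 64.3 TPM in UN to 24.1, 21.8 and 23.0 in SN (log2 difference -1.22 ± 0.15, adjusted p = 9.34e-05). It was 23.5, 22.3 and 23.3 TPM in UH and 13.3, 15.4 and 14.8 in SH, so that UH and SN overlapped and SH was lowest. Mrpl55, likewise mitochondria-specific, fell from 19.0, 32.2 and 26.3 TPM to 9.36, 12.6 and 9.94 (-1.19 ± 0.20, adjusted p = 0.000686), and Mrpl36, of bacterial descent, from 57.4, 74.4 and 65.8 to 36.1, 40.8 and 33.2 (-0.82 ± 0.13, adjusted p = 0.000647). Mrps14 (-0.80 ± 0.14) and Mrps16 (-0.77 ± 0.08), small-subunit proteins of bacterial descent, were also lower in SN. These 5 were called on both scales. Mrpl36 overlaps Ndufs6, a complex I gene on the opposite strand, which was 324, 427 and 449.7 TPM in UN and 177, 232 and 199.5 in SN. Markers of cell type moved with this comparison. Of the 6 fibroblast markers 4 were lower in SN than in UN, and of 7 tested hepatic markers 4 were lower (Krt8 by -3.43, Hnf4a by -1.86, Gpc3 by -1.82 and Alb by -1.56) while Afp was higher (1.86). The endothelial gene Tek, whose promoter drove the sorted reporter, was higher (1.62). The part of these markers in the differences was not tested.

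**Figure D4:**
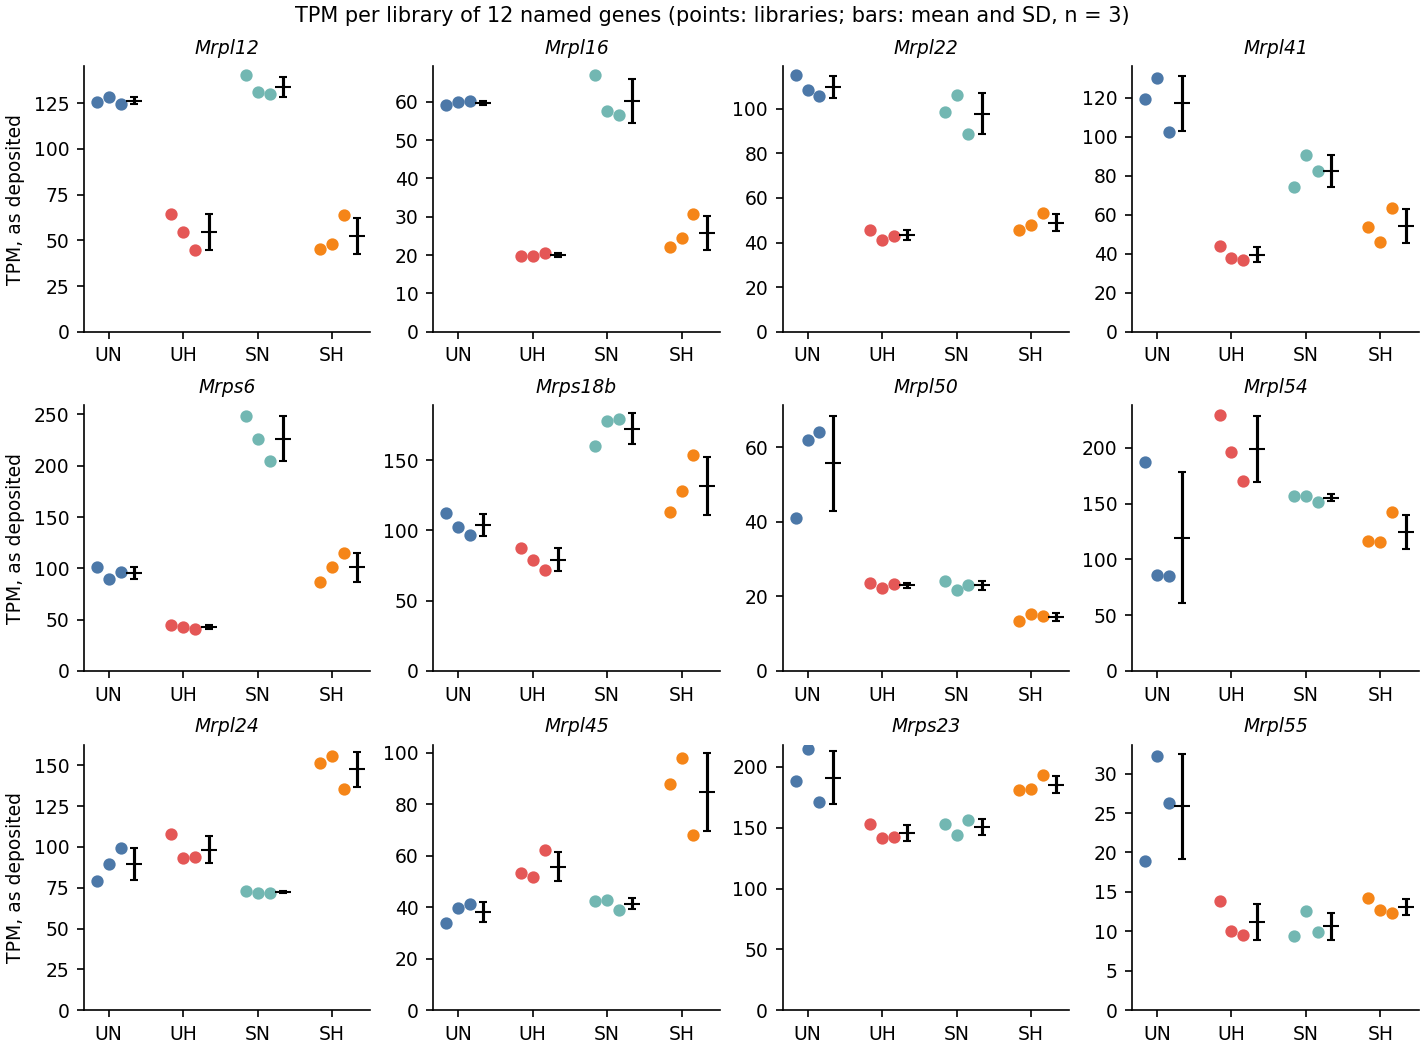
TPM as deposited of 12 named genes in each library (points), with the mean and SD (n = 3) of each group as a bar beside them and each vertical axis starting at 0. Mrpl12, Mrpl16 and Mrpl22 are low in both hypoxic groups, Mrps6 and Mrps18b are highest in SN, Mrpl50 is highest in UN, and Mrpl24 and Mrpl45 are highest in SH.

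In hypoxia, the comparison of sorted with unsorted cells turned with the scale. In SH vs UH, 21 members were higher and 8 lower as deposited, against 28.3% and 13.4% of all genes, and 6 higher and 19 lower after scaling (21.1% and 20.6%). The median was 0.09 as deposited, where that of all genes was 0.17, and -0.13 after scaling. Without UH 2 the number higher as deposited was 13, and that of all genes fell as well, from 5355 to 4515. The members that rose most were Mrps6, Mrpl49, Mrps18b, Mrps31 and Mrpl45. Mrpl49, a mitochondria-specific large-subunit protein, was 36.8, 37.1 and 36.2 TPM in UH and 62.0, 68.6 and 64.2 in SH (log2 difference 0.81 ± 0.08, adjusted p = 9.02e-06). Mrps31 was 10.1, 9.06 and 9.16 TPM in UH and 14.0, 16.2 and 15.0 in SH (0.62 ± 0.11, adjusted p = 0.000756). All 5 were higher after scaling too, from 0.36 (Mrpl45) to 0.99 (Mrps6).

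Mrps15, a small-subunit protein of bacterial descent, fell most in SH vs UH, from 72.2, 68.9 and 63.3 TPM in UH to 37.3, 41.8 and 44.3 in SH (-0.72 ± 0.10, adjusted p = 0.000146). Mrpl50 (-0.64 ± 0.15), Mrpl36 (-0.58 ± 0.13) and Mrps16 (-0.41 ± 0.08) were lower in SH than in UH as they were in SN than in UN, although these comparisons have different libraries on both sides. Mrpl54 was also lower, 116, 116 and 142 TPM against 229.5, 196 and 171 in UH (-0.66 ± 0.25), but the call was lost when any 1 library of UH or SH was left out (-0.77 to -0.55). The immune marker sum of SH (52.2 to 57.0 TPM) and the lower fibroblast marker sum moved with this comparison, with 1 of 3 tested immune markers higher, 1 lower and 5 of 6 fibroblast markers lower. Their part was not tested.

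Whether sorted and unsorted cells responded differently was tested directly by the contrast (SH - SN) - (UH - UN). As deposited the value was higher, that is less negative or more positive in sorted cells, for 12 members and lower for 2, against 17.4% and 4.51% of all genes, with a median of 0.17 where that of all genes was 0.25. After scaling 2 were higher and 3 lower (10.7% and 10.4% of all genes), and the median turned to -0.17. Mrpl55 differed most, at 1.41 ± 0.28 (adjusted p = 0.00464). It fell from 19.0, 32.2 and 26.3 to 13.8, 10.1 and 9.57 TPM in unsorted cells and was 9.36, 12.6 and 9.94 and 14.2, 12.7 and 12.3 TPM in SN and SH, which overlapped. Mrpl24 differed by 0.88 ± 0.14 (adjusted p = 0.00165), and both held after scaling (1.08 and 0.54). Mrpl41 (0.94 ± 0.19), Mrpl4 (0.83 ± 0.21) and Mrps31 (0.70 ± 0.15) fell less in sorted than in unsorted cells as deposited, and none of these was called after scaling (adjusted p = 0.116, 0.194 and 0.131). Mrpl54 (-1.14 ± 0.35, adjusted p = 0.0376) and Mrpl40 (-0.69 ± 0.19, adjusted p = 0.0252) went the other way and were called on both scales (-1.48 and -1.03 after scaling). Each of these lost its call when 1 of several libraries was left out, with values of -1.16 to -0.95 for Mrpl54 (without UN 2, UN 3, UH 1, UH 2, SN 1, SN 2, SN 3, SH 1 or SH 2) and -0.69 to -0.61 for Mrpl40 (without UN 2, UN 3, UH 1, UH 2, SN 1, SH 1 or SH 2).

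In this poly(A) RNA, the rRNAs of the same ribosome, encoded in the mitochondrial genome, did not fall with the mRNAs of its proteins. The small-subunit rRNA mt-Rnr1 was 449, 318 and 441 TPM in UN, 756, 677 and 635 in UH, 758, 832 and 483 in SN and 2141, 1967 and 2651 in SH. It was higher in both hypoxia comparisons (0.79 ± 0.20, adjusted p = 0.00766, and 1.73 ± 0.20, adjusted p = 5.28e-05). The large-subunit rRNA mt-Rnr2 was 801 ± 212 TPM in SN and 1482 ± 376 in SH (0.90 ± 0.28, adjusted p = 0.025), and 377 ± 164 in UN and 468 ± 43.0 in UH (adjusted p = 0.289). The libraries were made from poly(A) RNA, so these values give the rRNA that passed that selection.

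The genes that build and serve the mitochondrial ribosome had medians below 0 in both hypoxia comparisons as deposited. Their counts stand against 33.5% of all genes lower in UH and 19.5% in SH, and 21.1% and 20.2% after scaling. Of 25 assembly genes, 17 were lower and 1 higher in UH vs UN (median -0.52) and 11 lower and 2 higher in SH vs SN (median -0.32). Among them Mterf3, Gtpbp10 and Trub2 fell most in UH (-1.45, -1.23 and -1.10), and Wbscr16, Trub2 and Fastkd2 in SH (-0.86, -0.82 and -0.81). Mrm1, which methylates the large rRNA, rose in both (0.75 and 0.81), and Mettl15, which methylates the small rRNA, rose in SH (0.53). Of 14 translation factors, 6 were lower and 0 higher in UH (median -0.33) and 5 lower and 1 higher in SH (median -0.11), and after scaling 6 were lower and 4 higher in UH, with a median near 0. The elongation factor Gfm1 fell most in both, from 77.7 ± 12.1 to 26.0 ± 3.87 TPM in unsorted and from 72.1 ± 4.16 to 32.6 ± 2.14 TPM in sorted cells (-1.54 ± 0.13 and -1.12 ± 0.13). The elongation factor Tufm (-0.73 and -0.59) and the mRNA-binding protein Lrpprc (-0.71 and -0.62) fell as well, while the initiation factor Mtif2 rose in SH (0.43, adjusted p = 0.0336).

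Of 17 mitochondrial tRNA synthetases, 10 were lower in UH and 4 in SH, led by Tars2 (-1.29), Rars2 (-1.07) and Sars2 (-0.92) in UH and by Sars2 (-0.85), Yars2 (-0.83) and Iars2 (-0.44) in SH, where Nars2 rose (1.14). After scaling 7 synthetases were lower and 4 higher in UH, and the 4 of 17 in SH were near the share of all genes. Of 7 genes of mitochondrial transcription and replication, 2 were lower in each comparison (in UH no more than the share of all genes): Polg2 (-0.82) and Tefm (-0.65) in UH and Tfam (-0.63), which packages mitochondrial DNA, and Polg (-0.39) in SH. The polymerase Polrmt, the partner of Mrpl12, was 22.8 ± 2.81 and 18.3 ± 0.573 TPM in UN and UH and 39.7 ± 5.21 and 35.4 ± 4.55 TPM in SN and SH, with adjusted p = 0.0875 and 0.363. Of 8 nuclear regulators of mitochondrial genes, 5 were lower in UH and 3 lower and 2 higher in SH. The coactivator Pprc1 fell in both (-1.25 and -1.07), as did Ppargc1b (-0.60 and -0.96) and Nrf1 (-0.37 and -0.30). Gabpb1, a subunit of GABP, fell in UH (-0.60) and rose in SH (0.49), and Esrra did the same (-0.37 and 0.50). Ppargc1a was low, at 3.68 ± 0.215 TPM in UN and 3.04 ± 1.89 in UH, and Myc was 136 ± 25.2 and 135 ± 7.96 TPM, with adjusted p = 0.441 and 0.982. After scaling the UH vs UN medians of these lists lay between -0.20 (assembly) and 0.13 (transcription), and for transcription the direction turned. Esrra (-0.03) and Nrf1 (-0.03) were then not called in UH (adjusted p = 0.907 and 0.822).

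The nuclear genes of the respiratory chain and ATP synthase were mostly lower in hypoxia as deposited, and those of the cytosolic ribosome were not. Of all genes, 33.5% were lower and 13.0% higher in UH vs UN, and 19.5% and 21.5% in SH vs SN. After scaling these shares were 21.1% and 21.7% in UH vs UN, and 20.2% and 22.9% in SH vs SN. Of 78 respiratory chain genes, 60 were lower and 5 higher in UH vs UN (median -0.59) and 48 lower and 4 higher in SH vs SN (median -0.47). After scaling 24 were lower and 9 higher in UH (median -0.26) and 38 lower and 4 higher in SH (median -0.46). Of the genes at least as abundant as the lowest member, 27.6% were then lower in UH and 33.0% in SH. Of 77 cytosolic ribosomal protein genes, 15 were higher and 3 lower in UH (median 0.18) and 43 higher and 1 lower in SH (median 0.36). After scaling 45 were higher and 0 lower in UH (median 0.54) and 23 higher and 0 lower in SH (median 0.37). On both scales, then, the medians of the ribosomes of cytosol and mitochondrion had opposite signs in both hypoxia comparisons, and the difference between them was not tested.

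**Figure D5:**
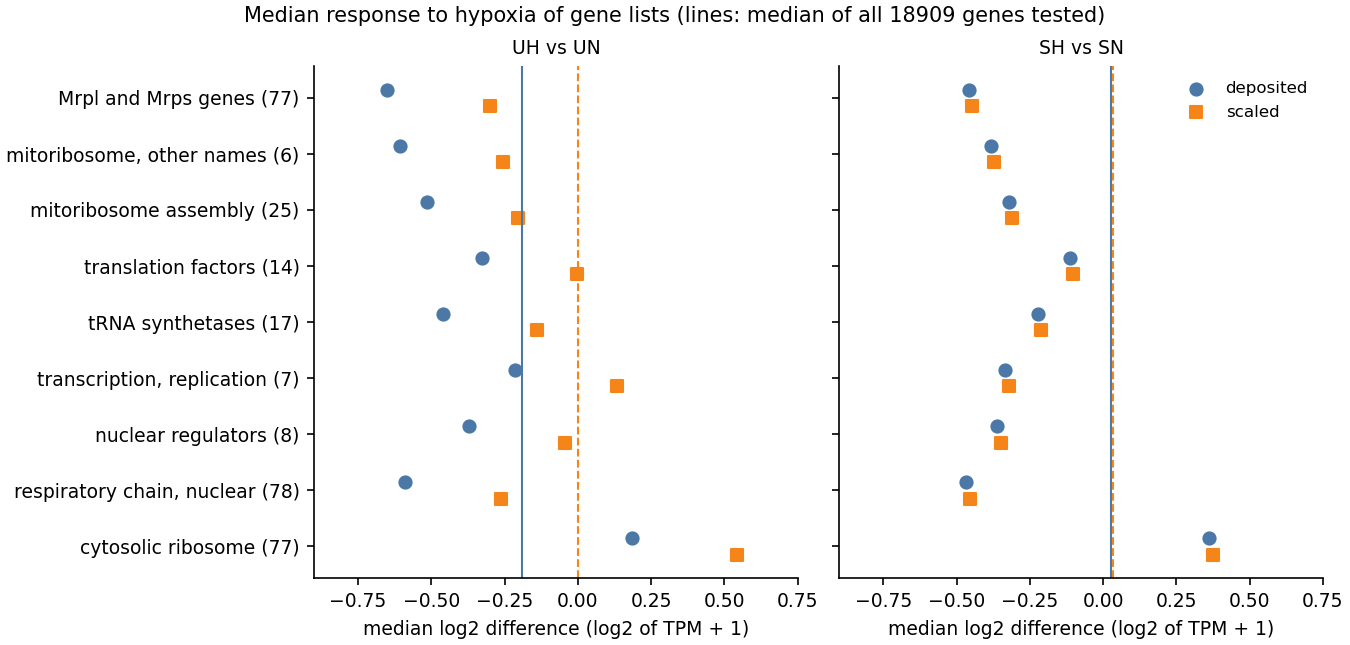
Median log2 difference of each gene list (number of genes in parentheses) in UH vs UN (left) and SH vs SN (right) on the log2(TPM + 1) scale, as deposited (circles) and after median-of-ratios scaling (squares), with the median of all genes tested as solid (deposited) and dashed (scaled) lines. The Mrpl and Mrps genes lie at -0.65 and -0.30 on the left and at -0.46 and -0.45 on the right, beside the respiratory chain, while the cytosolic ribosome lies above 0 on both scales.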

How the data were processed

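Poly(A) RNA of 12 samples was sequenced after a stranded library preparation. The authors processed the reads with nf-core/rnaseq 3.12.0 against mm10 and deposited gene-level TPM from salmon, with each library summing to 1000000; the annotation version is not given in the sources used here. TPM hold no read counts, so the depth behind a value is unknown, the study's count-based test could not be applied, and reads shared between overlapping genes were assigned upstream. The median-of-ratios scale, unlike TPM, does not fix the sum of a library.

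Values were analysed as log2(TPM + 1) with limma 3.58.1 in R 4.3.3: a fit of 4 group means to all 12 libraries, empirical Bayes with a trend, and Benjamini-Hochberg adjustment over the 18909 genes that averaged 0.1 TPM or more. A gene was called at an adjusted p under 0.05. Log2 differences on this scale understate the change of low genes. The fit was tested on simulated data. Errors are SE of a log2 difference and SD of a group. Groups and replicate numbers came from the sample labels, which do not say whether the 3 samples of a group were separate cultures. The paper calls the 3 replicas of each group independent but does not say at which step they were separated. The p-values measure the spread between these samples, which may be technical.

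Named members were, for each comparison, up to 5 per direction with the largest log2 difference among those called (and without overlap for pairs of groups), the 5 highest and 5 lowest by mean TPM, the Mrps18 paralogues, Mrpl12, Mrps30 and Mrps36, and for other lists up to 3 genes per direction plus fixed examples. Mrpl54 in UH vs UN and overlapping neighbor genes were added after their values were seen. Members and lists were chosen with earlier results of these data known. Python 3.11.15 with pandas 2.3.3 and matplotlib 3.10.9 made tables and figures. Alternatives were median-of-ratios scaling, TPM without mitochondrially encoded transcripts, a pseudocount of 0.1, no filter or a mean TPM of at least 1, a replicate block, only the groups compared, no trend, and leaving out each library.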

Additional observations from a re-analysis of the deposited data

Results flagged for a closer look

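The response to hypoxia differed between sorted and unsorted cells for 14 of the 77 genes, by the contrast (SH - SN) - (UH - UN) tested with limma at an adjusted p under 0.05. The 12 higher and 2 lower members stand against 17.4% and 4.51% of all genes, so the members were not called more often than all genes. The values, on the log2(TPM + 1) scale as deposited, were 1.41 for Mrpl55, 0.94 for Mrpl41, 0.88 for Mrpl24, 0.83 for Mrpl4, 0.70 for Mrps31, 0.68 for Mrps23 and 0.63 for Mrpl10. They were 0.57 for Mrpl49, 0.56 for Mrps22, 0.49 for Mrps26, 0.46 for Mrpl21 and 0.36 for Mrps16, and below 0 for Mrpl40 (-0.69) and Mrpl54 (-1.14). The median of all genes tested was 0.25 in this contrast as deposited and 0.02 after median-of-ratios scaling. After scaling Mrpl55 (1.08), Mrpl24 (0.54), Mrpl40 (-1.03) and Mrpl54 (-1.48) were still called, and Mrpl14 joined them (-0.26 as deposited, -0.60 scaled). The other 10 kept their sign with values from 0.02 (Mrps16) to 0.60 (Mrpl41) but were not called.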

How the results depend on the processing

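Scaling moved the results most. With median-of-ratios scaling the number of members called higher went from 2 to 6 (UH vs UN), from 21 to 6 (SH vs UH) and from 12 to 2 (difference of responses), and the number called lower from 62 to 31 (UH vs UN), from 21 to 11 (SN vs UN) and from 8 to 19 (SH vs UH). The mean summed TPM became 5658 in UN and 5013 in UH, and without mitochondrially encoded transcripts 6738 in UN and 6486 in SN. With only the groups compared, 1 was called higher in UH vs UN, and with no filter on low values 1 was called lower in the difference. Leaving out 1 library at a time, the number higher ranged from 1 to 3 in UH vs UN (1 without UN 2, UN 3 or UH 1), from 6 to 10 in SN vs UN (6 without UN 3, SN 1 or SN 2), from 13 to 19 in SH vs UH (13 without UH 2), and the number lower in the difference from 0 to 2 (0 without UN 2, UN 3, UH 1, UH 2, SN 1, SH 1 or SH 2, and 1 without SN 2 or SN 3). The number of all genes called higher also fell, from 2455 to 1868 in SN vs UN without SN 2. In SH vs UH without UH 2 it fell from 5355 to 4515. The cause was not tested. Without 1 library the number lower stayed at 59 to 63 for UH vs UN and at 43 to 53 for SH vs SN. Same-numbered libraries did not deviate together (r from -0.0631 to 0.141), so the numbers were not taken as pairs. With the replicate block 62 members were lower and 2 higher (UH vs UN), 49 and 3 (SH vs SN), 20 and 10 (SN vs UN), 7 and 19 (SH vs UH), and 2 and 10 (difference). Of 53 calls on named members, 8 were lost in at least 1 fit without a library, 10 with median-of-ratios scaling and 1 with the replicate block, and none changed sign, while 2 of all 64 calls of UH vs UN (Mrpl13 and Mrps15) changed sign with scaling. With 3 libraries a group and no counts, differences of low genes such as Mrpl57 are the least precise.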
